A study of Rattus norvegicus with 74 samples.

Results

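The mitochondrial genome of the rat encodes 13 mRNAs, and 6 of them specify subunits of respiratory complexes III, IV and V. The 6 were chosen by symbol in all 3 deposited count tables: Mt-cyb (ENSRNOG00000031766), Mt-co1 (ENSRNOG00000034234), Mt-co2 (ENSRNOG00000030371), Mt-co3 (ENSRNOG00000030700), Mt-atp6 (ENSRNOG00000031979) and Mt-atp8 (ENSRNOG00000033299). They are 6 of the 30560 genes in the tables and 6 of the 37 genes on the mitochondrial genome. The other 7 mitochondrial mRNAs encode subunits of complex I.

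RNA was sequenced from male wild-type Wistar Kyoto rats killed at 9 weeks of age. Trained rats (ExT) ran on a treadmill for 4 weeks, 5 days a week, from 5 weeks of age, building up from 20 min at 15 m/min to 60 min at 20 m/min. Control rats (Sed) stood on a treadmill that was switched off, and tissue came 24 h after the last bout. Rats of both arms drank water with 8% deuterium oxide. The inner red gastrocnemius, a hindlimb muscle rich in mitochondria, gave whole-tissue RNA (SM) and, from the same rats, RNA of mitochondria (MT) that had been immunoprecipitated and cleaned with proteinase-K and RNase-A. A subset of these rats also gave left ventricle wall (LV). The groups SM_Sed, SM_ExT, MT_Sed and MT_ExT had 15 rats each, LV_Sed and LV_ExT had 7 each, and 74 libraries were made in all. SM libraries were prepared from 50 ng and MT libraries from 10 ng of RNA with a Zymo depletion kit. LV libraries were prepared from 100 ng with an Illumina TruSeq Ribo-Zero kit, so kit, input and tissue cannot be told apart in LV against SM, nor input and preparation in MT against SM.

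Cytochrome b, the product of Mt-cyb, is a subunit of complex III, which passes electrons from ubiquinol to cytochrome c. Mt-co1, Mt-co2 and Mt-co3 encode the catalytic core of complex IV, cytochrome c oxidase, which passes electrons to oxygen. Mt-atp6 encodes the membrane subunit of ATP synthase (complex V) that lies on the path of the protons, and Mt-atp8 a small subunit beside it. The mitochondrial genome is transcribed into long precursors that are cut into single RNAs, mostly at the tRNAs between the genes. Mt-atp8 and Mt-atp6 are an exception, since their reading frames overlap and are carried on a common mRNA. The remaining subunits of these complexes are encoded in the nucleus and imported.

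SM libraries held between 19477976 and 39401323 counts, MT libraries between 530397 and 9988027, and LV libraries between 54645657 and 75758777. Skeletal muscle markers had a median summed level of 115988 CPM (counts scaled to library totals) in SM_Sed and 4554 CPM in LV_Sed, and heart muscle markers 2290 CPM in SM_Sed and 24974 CPM in LV_Sed. In MT_Sed the same sums were 457 and 350 CPM. The atrial markers Nppa and Myl7, 2 of the 8 on the heart list, had at most 3 counts in every SM library. The labels do not say what the rat number marks, but several results differed between rats 2 to 16 and rats 17 to 32, and values are therefore also given within these ranges (for SM and MT, 7 rats of each arm below the split and 8 above it, and for LV 1 and 6). In bulk RNA, fewer cells of a type and less RNA per cell cannot be told apart. Counts also rise with the length of a gene, so levels are compared for each gene across samples, not between genes.

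The 6 mRNAs together took a similar percent of the counts in all 3 kinds of sample, but the spread between rats was widest in isolated mitochondria. Their percent of all counts had a median of 4.76 in SM_Sed (lowest 3.23, highest 6.11) and 5.64 in SM_ExT (3.90 to 7.68). It was 6.12 in MT_Sed (1.96 to 11.8) and 5.56 in MT_ExT (3.01 to 15.1). It was 5.32 in LV_Sed (4.97 to 5.59) and 5.75 in LV_ExT (4.77 to 6.30). The ranges of the 6 groups overlapped throughout, and the lowest and the highest library were both MT libraries. These are parts of the counts and not of the RNA, since kit or RNA input differed between the sample types.

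Taken singly, the mRNAs fell into separate patterns. Mt-cyb took a median of 0.583% of all counts in SM_Sed (0.433 to 0.681), 0.655% in SM_ExT (0.4999 to 1.04), 0.962% in MT_Sed (0.366 to 1.91), 0.871% in MT_ExT (0.544 to 2.16), 0.0711% in LV_Sed (0.0548 to 0.105) and 0.0871% in LV_ExT (0.0613 to 0.133). The order was MT, SM and LV, with MT and SM overlapping and every LV library below every other. Mt-atp6 took 0.616% in SM_Sed (0.439 to 0.822), 0.692% in SM_ExT (0.512 to 0.976), 0.694% in MT_Sed (0.210 to 1.21), 0.594% in MT_ExT (0.302 to 1.40), 0.112% in LV_Sed (0.0933 to 0.159) and 0.140% in LV_ExT (0.0907 to 0.198). As for Mt-cyb, no LV library reached the lowest SM or MT library, and SM and MT overlapped.

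Mt-co1 had the most counts of the 6 in every group, not corrected for length. It took a median of 2.80% of all counts in SM_Sed (1.82 to 3.77), 3.35% in SM_ExT (2.31 to 4.58), 3.52% in MT_Sed (1.03 to 7.36), 3.20% in MT_ExT (1.501 to 9.34), 4.07% in LV_Sed (3.95 to 4.50) and 4.51% in LV_ExT (3.83 to 4.93). LV libraries lay within the range of MT, and in LV_ExT rats 18 (4.93%) and 27 (4.82%) exceeded the highest SM library. Mt-co2 took 0.289% in SM_Sed (0.176 to 0.417), 0.303% in SM_ExT (0.203 to 0.495), 0.470% in MT_Sed (0.151 to 0.840), 0.403% in MT_ExT (0.219 to 0.949), 0.433% in LV_Sed (0.417 to 0.473) and 0.465% in LV_ExT (0.403 to 0.543). Mt-co3 took 0.409% in SM_Sed (0.281 to 0.545), 0.461% in SM_ExT (0.337 to 0.701), 0.594% in MT_Sed (0.197 to 1.14), 0.532% in MT_ExT (0.325 to 1.23), 0.449% in LV_Sed (0.415 to 0.569) and 0.543% in LV_ExT (0.380 to 0.672). For both, MT overlapped SM and LV, and the medians of MT and LV lay above that of SM within an arm.

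Mt-atp8 had the fewest counts, again not corrected for length. It took a median of 0.00946% of all counts in SM_Sed (0.00565 to 0.0155), 0.0104% in SM_ExT (0.00684 to 0.0188), 0.00672% in MT_Sed (0.00327 to 0.0225), 0.00732% in MT_ExT (0.00445 to 0.0298), 0.00406% in LV_Sed (0.00327 to 0.00516) and 0.00345% in LV_ExT (0.00261 to 0.00586). Single MT libraries had between 29 and 1440 counts on it, against at least 1548 in SM and at least 1642 in LV. The order of the medians was SM, MT and LV, and MT overlapped both others. Against the SM libraries of the same rats, 5 of the 6, all but Mt-co3, did not overlap with LV in either arm, where 57.6% of all genes in Sed and 55.9% in ExT did not, and 0 of 6 were without overlap between MT and SM (54.2% and 46.6% of all genes).

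**Figure D1:**
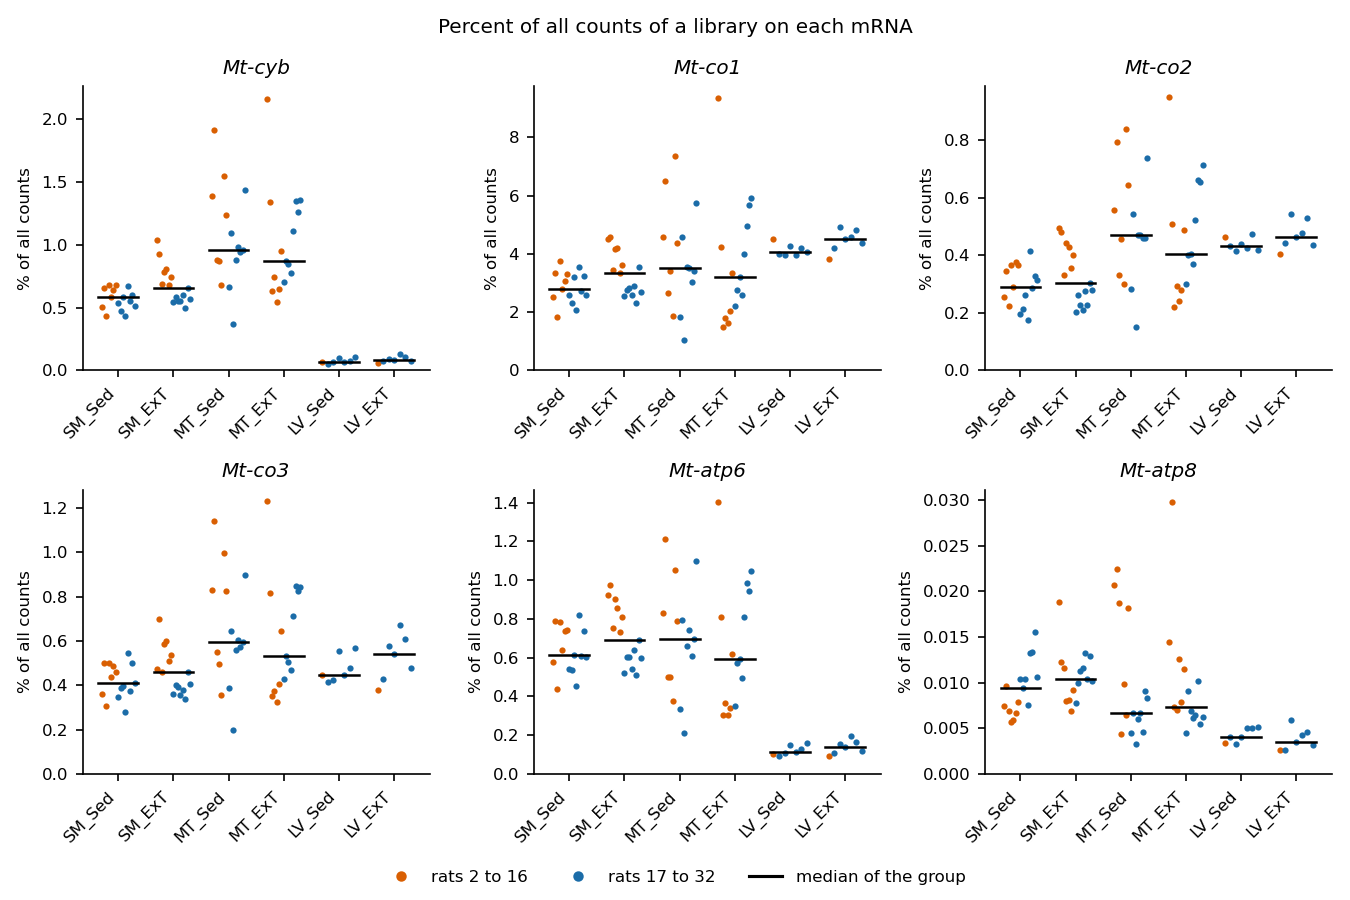
Percent of all counts of each of the 74 libraries that fell on each mRNA, by group; each point is 1 rat, coloured by rat number range, and the line is the median of the group (vertical axes start at 0 and differ between panels). Mt-cyb and Mt-atp6 lie below 0.2% in every LV library, and Mt-co1 spreads from 1.03 to 9.34% in MT.

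To set aside the total of the mitochondrial mRNAs in a library, each was also taken as a share of the counts on the 13 mitochondrial mRNAs. In MT the shares of Mt-co1 and Mt-cyb nevertheless varied with the mitochondrial part of the library, as described below. In SM_Sed the spread of the shares between rats was small beside their means for all but Mt-atp8. Mt-co1 averaged 41.0% ± 1.81 of the 13 in SM_Sed (SD, n = 15), Mt-atp6 9.21% ± 0.241, Mt-cyb 8.23% ± 0.434, Mt-co3 6.04% ± 0.375, Mt-co2 4.20% ± 0.460 and Mt-atp8 0.138% ± 0.0424. At the depth of single libraries the widest 95% Wilson interval of such a share was ± 0.570 points, for Mt-co1 in the MT library with the fewest counts. Such intervals account for counting error alone, since PCR copies of a read are no separate molecules. The 6 together held a median of 68.6% of the 13 in SM_Sed, 62.8% in MT_Sed and 96.0% in LV_Sed.

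Left ventricle and whole gastrocnemius differed in the make-up of their mitochondrial mRNA. The LV libraries were compared with the SM libraries of the same rats, 7 in each arm. Mt-co1 held 75.4% ± 1.92 of the 13 mRNAs in LV_Sed and 41.0% ± 1.25 in SM_Sed, a difference of 34.4 points, and 75.1% ± 2.34 against 42.3% ± 1.63 in ExT, a difference of 32.8 points. Its 7 LV libraries in each arm lay above all 7 SM libraries. Mt-co2 held 8.02% ± 0.375 in LV_Sed and 4.22% ± 0.530 in SM_Sed, and Mt-co3 8.69% ± 0.869 and 6.11% ± 0.458, so that all 3 complex IV subunits took a larger share of the 13 in the LV libraries.

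The other 3 took a smaller share in LV. Mt-cyb fell from 8.15% ± 0.478 in SM_Sed to 1.42% ± 0.284 in LV_Sed, a difference of -6.74 points, and Mt-atp6 from 9.26% ± 0.218 to 2.22% ± 0.389, a difference of -7.04 points. Mt-atp8 fell from 0.165% ± 0.0365 to 0.0782% ± 0.0150. In ExT the differences were -7.26 points for Mt-cyb, -6.78 for Mt-atp6 and -0.0924 for Mt-atp8. All 6 passed in both arms, with an adjusted p of 0.00126 in 11 of the 12 tests (exact permutation test, raw p 0.000583, the smallest that 7 against 7 allow, over 91 tests) and 0.00247 for Mt-atp8 in Sed (exact permutation test). Of the 13 mRNAs, 100.0% passed in Sed and 100.0% in ExT, so passing does not set the 6 apart. The groups did not overlap for 5 of the 6 in Sed (84.6% of the 13) and for 6 of 6 in ExT (100.0% of the 13); the exception was Mt-atp8.

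Of the 7 complex I mRNAs, Mt-nd4 moved most, from 9.69% in SM_Sed to 0.489% in LV_Sed, and Mt-nd3 least, from 0.758% to 1.05%. Summed, the 7 complex I mRNAs had a median of 20397 CPM of library totals in all 15 SM_Sed libraries and 2079 CPM in LV_Sed. The shares of the 13 depend on each other, since they add up to the whole. Taken instead as a share of all 37 mitochondrial genes, which include the rRNAs, Mt-co1 held 9.07% ± 0.655 in LV_Sed and 9.04% ± 1.32 in SM_Sed (SD, n = 7 each), and Mt-co2 0.965% and 0.943%, without a difference past the threshold (exact permutation adjusted p 0.979 and 0.919). Mt-co3 was lower in LV_Sed on that scale, at 1.04% against 1.34% (exact permutation adjusted p 0.0106). Mt-cyb was also lower in LV, at 0.169% against 1.80%, and Mt-atp6 at 0.266% against 2.04% (exact permutation adjusted p 0.00231 each). The 13 mRNAs together made up a mean of 12.0% of mitochondrial counts in LV_Sed and 23.2% in all 15 SM_Sed libraries.

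**Figure D2:**
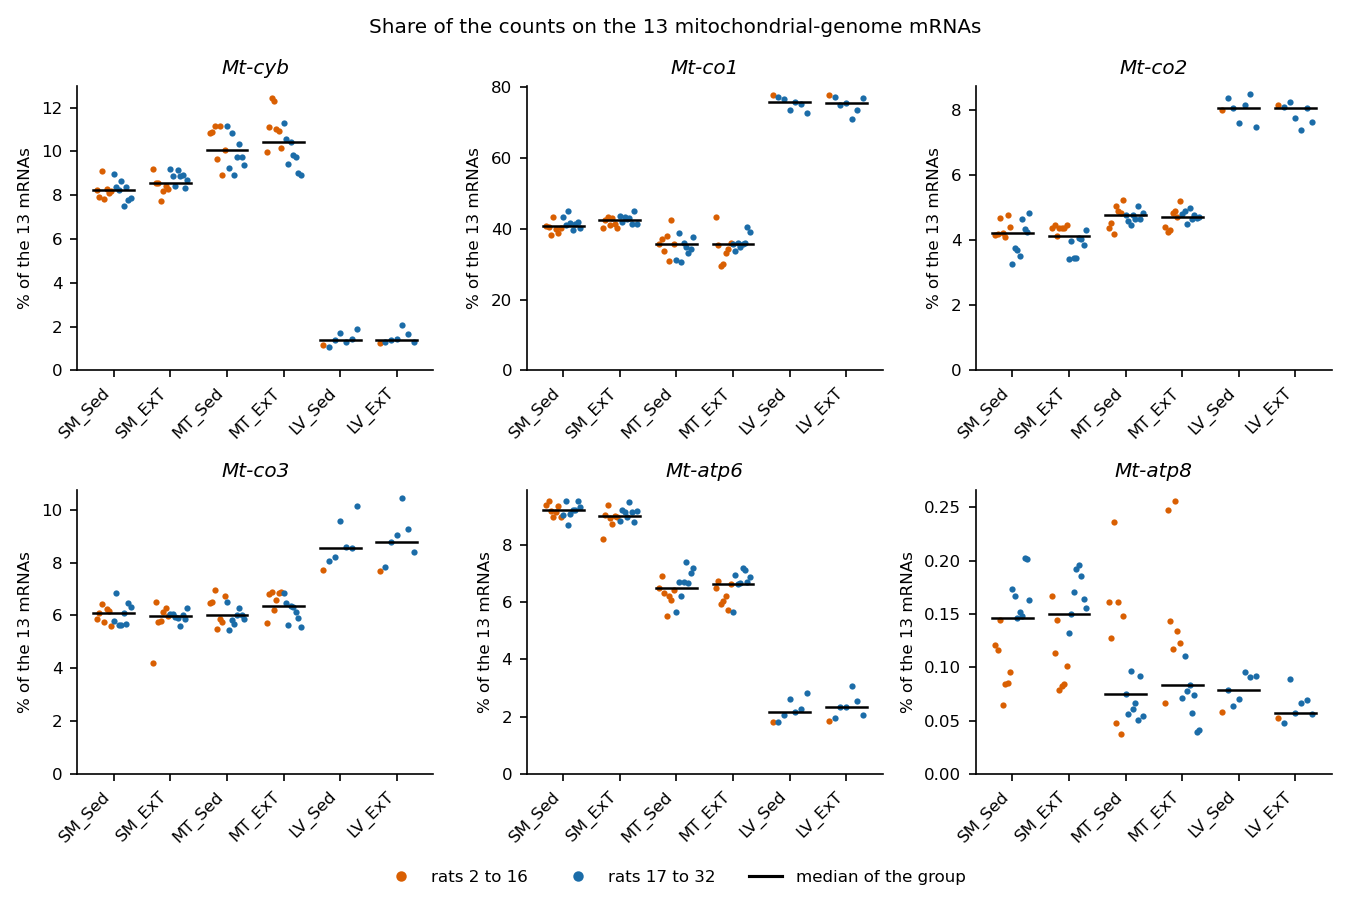
Share of the counts on the 13 mitochondrial-genome mRNAs that fell on each of the 6, by group; points are rats coloured by rat number range and lines are medians (vertical axes start at 0 and differ between panels). Mt-co1 lies between 70.9 and 77.8% in LV and between 29.5 and 45.1% in SM and MT, and Mt-atp6 is lower in every MT library than in any SM library.

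The gene-by-gene test on counts, edgeR's quasi-likelihood F test with TMM scaling over all genes, put Mt-cyb, Mt-atp6 and Mt-atp8 lower in LV in both arms, and of the complex IV subunits called Mt-co1 higher in Sed and Mt-co1 and Mt-co2 in ExT. In Sed, 4 of the 6 were called at an adjusted p under 0.05, against 78.7% of all 14367 genes tested: 1 was higher in LV (40.0% of all genes were) and 3 were lower (38.6% of all genes were). Mt-cyb had a log2 fold change of -3.11 (SE 0.159), Mt-atp6 of -2.65 (SE 0.154) and Mt-atp8 of -1.66 (SE 0.153), with edgeR adjusted p of 7.3e-13, 5.3e-12 and 4.4e-08. Mt-co1 was higher by 0.28 (SE 0.120, edgeR adjusted p 0.0414), a call that was lost with RLE size factors (edgeR adjusted p 0.0588) and in rats 17 to 32 alone (0.0681). Mt-co2, at 0.30 (edgeR adjusted p 0.0554), and Mt-co3, at -0.09 (0.537), were not called. With the rat number as a block, Mt-co2 passed as well, at 0.34 (edgeR adjusted p 0.0149).

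In ExT, 5 of the 6 were called, against 79.3% of 14338 genes: 2 were higher (39.7% of all genes) and 3 lower (39.5%). On the log2 scale LV differed from SM by 0.42 (SE 0.147) for Mt-co1, 0.56 (SE 0.149) for Mt-co2, -2.94 (SE 0.176) for Mt-cyb, -2.37 (SE 0.180) for Mt-atp6 and -1.65 (SE 0.190) for Mt-atp8, with edgeR adjusted p from 8.4e-12 for Mt-cyb to 0.0136 for Mt-co1. Mt-co3, at 0.16, was not called (edgeR adjusted p 0.338). A call share near that of all genes is no result about the 6, and the median log2 fold change of all genes was 0.04 in Sed and 0.01 in ExT.

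The nuclear-encoded partners of these subunits moved in both directions between LV and SM, as did all genes (40.0% higher and 38.6% lower in Sed, 39.7% and 39.5% in ExT). Of 8 tested nuclear genes of complex III, 3 were higher and 3 lower in LV_Sed, and 4 and 3 in LV_ExT. The largest changes in Sed were in Uqcrc1, a core subunit, at 1.07 on the log2 scale (668 CPM in LV against 319 in SM; CPM of single genes are scaled by the TMM factors of the fit they come from, so those of different comparisons are not comparable), and Uqcrb, which binds beside cytochrome b, at -1.78. For complex IV, 5 of 12 were higher and 3 lower in both arms. They were led by Cox6a2, the muscle and heart form of its subunit, at 1.65 in Sed and 1.92 in ExT, and by Cox6c, at -1.72 and -1.56. For complex V, 8 of 14 were higher and 6 lower in Sed, and 7 and 4 in ExT. Atp5mc3, which encodes the c-ring subunit, was at 1.31 in Sed, Atp5mg at 1.48 in ExT, and Atp5me, at 73.8 CPM in SM_Sed and 0.134 CPM in LV_Sed, was lowest at -9.10. The LV level of Atp5me was near the floor, with 0.110 CPM in LV_ExT and at most 3 counts in the LV_ExT library of rat 14. The size of its fold is therefore uncertain. The part of kit, read assignment and tissue in it was not tested. The median log2 fold change of the lists in Sed was -0.00100, 0.07 and 0.39, beside 0.04 for all genes.

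Among 27 tested factors that make, process or translate mitochondrial mRNA, 16 were higher and 3 lower in LV_Sed, and 18 and 3 in LV_ExT (of all genes, 40.0% and 38.6% in Sed and 39.7% and 39.5% in ExT), with a median log2 fold change of 0.22 and 0.30. Tsfm, a translation elongation factor, led in Sed at 1.08 and Slirp, which binds mitochondrial mRNA, in ExT at 1.25. Tfam, which packages mitochondrial DNA and starts its transcription, was the lowest called gene in both arms, at -0.78 and -0.73. All of these calls are edgeR adjusted p under 0.05 over all genes.

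Isolated mitochondria held the same mRNAs in a shifted mix. Mt-cyb rose from 8.23% ± 0.434 of the 13 in SM_Sed to 10.1% ± 0.823 in MT_Sed (SD, n = 15 each) and from 8.63% ± 0.418 to 10.5% ± 1.06 in ExT, and it was higher in MT in 15 of 15 rats of both arms. Mt-atp6 fell from 9.21% ± 0.241 to 6.50% ± 0.525 in Sed and from 9.00% ± 0.305 to 6.50% ± 0.490 in ExT, lower in MT in every rat and without overlap between MT and SM libraries. Mt-co1 fell from 41.0% ± 1.81 to 35.3% ± 3.23 in Sed, with MT higher in 1 of 15 rats, and from 42.2% ± 1.34 to 35.5% ± 3.56 in ExT, with MT higher in 1 of 15. The adjusted p was 7.6e-05 for each of these (permutation test, 91 tests, from the smallest raw p that 100000 resamples can give, 1e-05). The rats with Mt-co1 higher in MT were rat 15 in Sed and rat 2 in ExT. Their MT libraries had 92.2% and 95.4% of all counts on the mitochondrial genome, the highest of each arm.

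The remaining complex IV subunits shifted less. Mt-co2 rose from 4.20% ± 0.460 to 4.73% ± 0.280 in Sed (adjusted p 0.00126, permutation test, higher in 13 of 15 rats) and from 4.08% ± 0.374 to 4.71% ± 0.262 in ExT (7.6e-05, 14 of 15 rats). Mt-co3 was at 6.04% in SM_Sed and 6.09% in MT_Sed, a difference within the spread of rats (adjusted p 0.835, permutation test), and at 5.89% and 6.34% in ExT, where it passed (0.0268, 13 of 15 rats). The ExT pass of Mt-co3 was lost within each rat range (exact permutation adjusted p 0.0741 and 0.424). Mt-atp8 did not pass, at 0.138% in SM_Sed and 0.0983% in MT_Sed (adjusted p 0.0742, permutation test) and at 0.141% and 0.109% in ExT (0.202). The lowest Mt-co3 share of any SM library, 4.19%, was that of rat 2 in SM_ExT.

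Among the 13 mRNAs, 69.2% passed in Sed and 76.9% in ExT, of which the 6 supplied 4 and 5. The groups did not overlap for 15.4% of the 13 in Sed and 7.69% in ExT, and Mt-atp6 was among these in both arms. Of the complex I mRNAs, Mt-nd5 moved most, from 6.19% to 9.93% in Sed and from 5.97% to 9.86% in ExT, and Mt-nd3 least, from 0.784% to 0.683% and from 0.655% to 0.642%. Of the 4 passes in Sed, those of Mt-co1 and Mt-co2 were lost in rats 2 to 16 alone (exact permutation adjusted p 0.0646 and 0.132). In ExT, Mt-co2 was lost there too (0.132). As a share of all 37 mitochondrial genes, Mt-atp6 and Mt-co1 remained lower in MT in both arms (permutation adjusted p 0.000455 and 0.00231), whereas Mt-cyb, at 2.26% against 1.90% in Sed (permutation adjusted p 0.0908), and Mt-co2 did not pass.

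Within the MT libraries, the share of Mt-co1 rose with the part of the library that came from the mitochondrial genome, which ran from 12.9% to 95.4% of all counts. Over the 30 libraries Pearson's r was 0.892 and Spearman's rho 0.891 (permutation p 1e-05 each, adjusted 2.6e-05 and 3.2e-05 over 13 mRNAs), and r was 0.861 without the 2 libraries farthest from the median. It was 0.903 in MT_Sed, 0.887 in MT_ExT, 0.929 in rats 2 to 16 and 0.891 in rats 17 to 32. The library of rat 23 in MT_Sed, with the lowest mitochondrial part, had a Mt-co1 share of 30.6%, and that of rat 2 in MT_ExT, with the highest, 43.3%. Mt-cyb ran the other way, with r of -0.779 and rho of -0.785 (permutation p 2.0e-05 each, adjusted 4.3e-05 and 5.2e-05). Its r was -0.791 without the 2 farthest libraries, -0.720 and -0.834 within the arms and -0.727 and -0.871 within the ranges.

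The other members followed less closely. For Mt-co2, r was -0.05 (permutation p 0.785) and rho -0.113 (permutation p 0.552). For Mt-co3, r was -0.508 and rho -0.480, for Mt-atp6 0.505 and 0.549, and for Mt-atp8 -0.512 and -0.584, with permutation p adjusted over the 13 from 0.00158 to 0.00944. None of these 3 passed in all arms and ranges: the r of Mt-co3 was -0.239 in MT_Sed and -0.404 in rats 2 to 16, that of Mt-atp6 0.387 and 0.408, and that of Mt-atp8 -0.419 and -0.528 (permutation p adjusted 0.0846 to 0.424). The complex I mRNAs varied with the mitochondrial part too, so the relation was not particular to the members. Over all MT libraries r was -0.902 for Mt-nd5, -0.815 for Mt-nd1, 0.775 for Mt-nd3 and -0.699 for Mt-nd2. It was -0.554 for Mt-nd4, 0.531 for Mt-nd6 and -0.514 for Mt-nd4l (permutation p adjusted 2.6e-05 to 0.00486 for these mRNAs). Shares of the 13 add up to the whole, so the rise of Mt-co1 and the falls of others are not independent. Both axes come from the same counts, and total depth differed between these libraries as well. This relation was examined after the data had been seen.

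**Figure D3:**
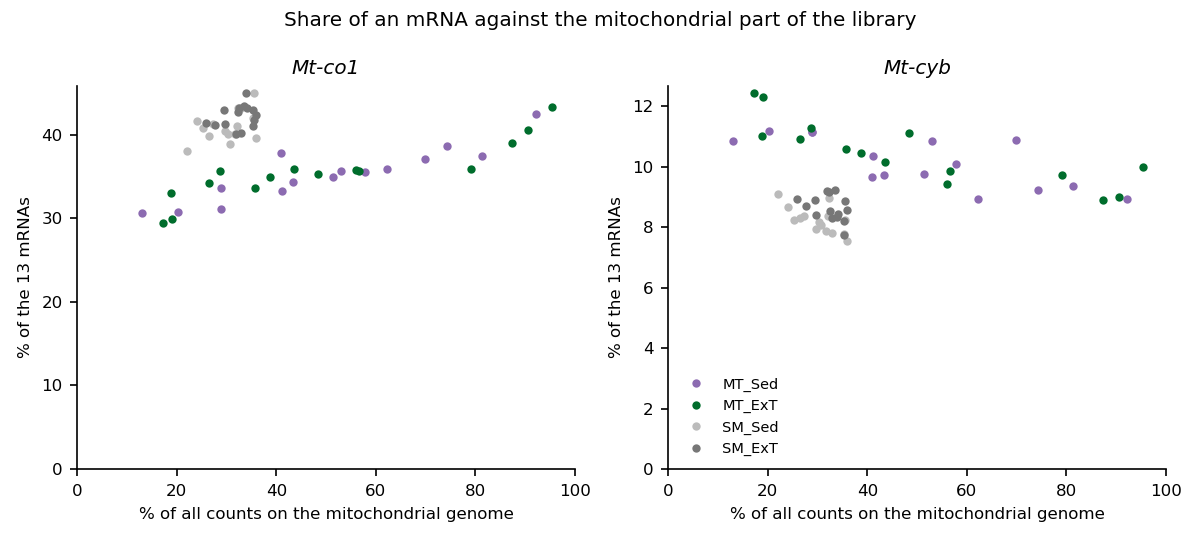
Share of the 13 mRNAs held by Mt-co1 (left) and Mt-cyb (right) against the percent of all counts on the mitochondrial genome; each point is a library of MT or, for comparison, SM (vertical axes start at 0). In MT, Mt-co1 runs from 29.5 to 43.3% and Mt-cyb from 8.91 to 12.4%, in opposite directions along the horizontal axis.

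Set against the nuclear-encoded counts, the level of the 6 in MT depended on the scaling. With TMM, edgeR called 1 of 6 in Sed, where 94.8% of 22842 genes were called, 61.7% higher and 33.1% lower. This was Mt-atp8, lower in MT at -1.07 on the log2 scale with an SE of 0.344 (edgeR adjusted p 0.00454). The median of all genes was 1.81, and the distance of Mt-atp8 from it was -2.88. This call was lost with RLE size factors (-0.68, edgeR adjusted p 0.0613), with DESeq2 (-0.66, adjusted p 0.0597) and in rats 2 to 16 (-0.13, edgeR adjusted p 0.787), and the value turned to 0.087 with library totals and 0.31 after thinning to the smallest total. The other 5 lay between -0.63 and 0.10 (edgeR adjusted p from 0.152 to 0.907). In ExT, 0 of 6 were called with edgeR, against 94.3% of 21312 genes (59.3% higher, 35.0% lower), none of the 6 had an unadjusted p under 0.05, and DESeq2 called 1. Their log2 fold changes lay between -0.59 and 0.61, beside a median of 1.31 for all genes. With the rat number as a block, edgeR called 4 lower in Sed (7545 of all 22842 genes) and 3 lower in ExT (7453 of 21312). Scaling to library totals alone instead gave 4 higher in Sed (17576 of all 22842 genes) and 1 higher in ExT (15661 of 21312).

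The nuclear-encoded genes of the same complexes stood far below these values in MT. Of 8 genes of complex III, 8 were lower in MT in both arms, where 33.1% and 35.0% of all genes were lower, with a median log2 fold change of -5.88 in Sed and -6.06 in ExT under TMM and of -4.34 and -4.55 with library totals. The counts of called genes for complexes III and V were the same with RLE size factors and with library totals. Summed over the list, complex III stood at a median of 1829 CPM of library totals in SM_Sed and 87.1 CPM in MT_Sed. Uqcrh, the hinge subunit, was at 318 CPM in SM_Sed and 2.98 CPM in MT_Sed, and the iron-sulphur subunit Uqcrfs1 was lowest in ExT at -6.74. Of 13 genes of complex IV, 10 were lower in both arms (medians -5.90 and -6.04) and 3 and 2 were higher. Cox7b was lowest, at -7.28 and -7.69, and Cox7a1, the muscle form of its subunit, highest among those above 5 CPM, at 1.08 and 0.45. Relative to the median of all genes Cox7a1 was lower as well. Of 15 genes of complex V, 14 were lower and 1 higher in both arms. The other genes that were higher, named after their values were seen, were Cox4i2 (Sed alone called) and Cox8c of complex IV and Atp5mc1 of complex V. Cox8c had at most 3 counts in every SM library, and Atp5mc1 in every SM_Sed library, so these values were set against the floor. Atp5f1b, the catalytic beta subunit, was at 2914 CPM in SM_Sed and 8.64 CPM in MT_Sed. Of 27 factors for mitochondrial mRNA, 24 were lower and 0 higher in both arms under TMM, but with library totals 9 were lower and 10 higher in Sed, and 9 and 8 in ExT, so the direction of this list rests on the scaling. The largest TMM change was in Hsd17b10, part of mitochondrial RNase P, at -5.05 and -5.23. These calls are edgeR adjusted p under 0.05 over all genes.

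The ratio of Mt-atp8 to Mt-atp6 was followed separately. Because its reading frame overlaps that of Mt-atp6, the authors' counting could split reads between the pair, and both levels are uncertain for that reason. A library had a median of 61.7 Mt-atp6 counts per Mt-atp8 count in SM (45.4 to 138), 77.6 in MT (24.2 to 171), 30.9 in LV_Sed (22.5 to 37.2) and 36.6 in LV_ExT (26.1 to 46.2). Over all rats the log2 ratio of Mt-atp8 to Mt-atp6 differed between MT and SM by -0.12 in Sed and -0.05 in ExT, neither past the threshold (permutation adjusted p 0.750 and 0.843, 7 tests). LV was higher than SM by 1.02 in Sed and 0.69 in ExT, in 7 of 7 rats of each arm and without overlap (exact permutation adjusted p 0.00204 each).

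Within the rat ranges, MT and SM stood in opposite orders. In rats 2 to 16, SM had a median of 91.3 Mt-atp6 counts per Mt-atp8 count (49.2 to 138) and MT 43.0 (24.2 to 163). In rats 17 to 32, SM had 55.2 (45.4 to 66.9) and MT 103 (62.8 to 171). The log2 ratio of Mt-atp8 to Mt-atp6 was higher in MT by 0.73 in Sed and 0.93 in ExT in the earlier range (exact permutation adjusted p 0.160 and 0.0466), in 6 of 7 rats each. It was lower in MT by a difference of -0.86 and -0.91 in the later range (exact permutation adjusted p 0.00109 each), with MT higher in 0 of 8 rats each. The difference between the ranges itself, taken over the within-rat values of both arms, was -1.72 on the log2 scale (permutation adjusted p 7.0e-05 over 14 tests, 14 against 16 rats). The share of Mt-atp8 among the 13 behaved alike: the within-rat MT minus SM difference was 0.0377 points ± 0.0703 in rats 2 to 16 and -0.0997 ± 0.0303 in rats 17 to 32 (SD, permutation adjusted p 7.0e-05).

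**Figure D4:**
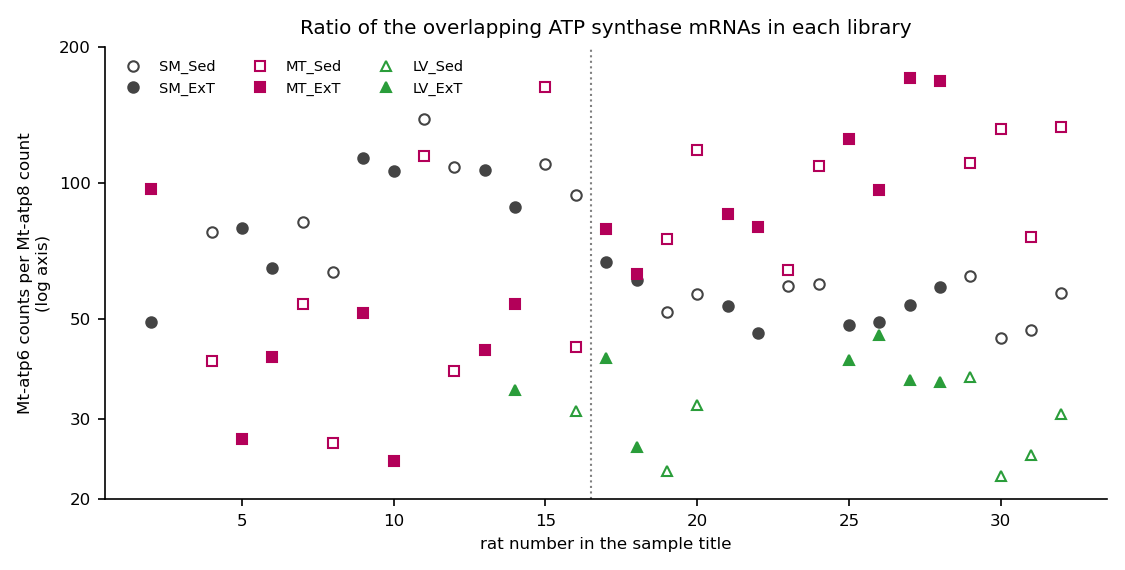
Mt-atp6 counts per Mt-atp8 count in each library against the rat number (log vertical axis; open symbols Sed, filled symbols ExT; the dotted line separates rats 2 to 16 from rats 17 to 32). MT squares lie mostly below SM circles to the left of the line, with medians of 43.0 and 91.3, and above them to its right, with medians of 103 and 55.2.

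On the level test, edgeR called none of the 6 with training in any sample type. In SM their log2 fold changes were all above 0, from 0.13 for Mt-co3 to 0.25 for Mt-cyb (SE 0.107 to 0.150), and edgeR called 0 of 6, against 0.206% of 13570 genes (0.184% higher, 0.0221% lower), with adjusted p from 0.296 for Mt-cyb to 0.697. Of the 6, 1 had an unadjusted p under 0.05 by edgeR, as did 1860 of all 13570 genes, and DESeq2 called 0. In MT edgeR called 0 of 6 and 0.0% of 19281 genes (0 of the 6 at an unadjusted p under 0.05, 0 by DESeq2). The fold changes there lay from 0.65 to 0.78 with SE from 0.567 to 0.741, and turned to between -0.10 and -0.04 with library totals. In LV edgeR called 0 of 6 and 0.0% of 14488 genes (0 of the 6 at an unadjusted p under 0.05, 0 by DESeq2), with Mt-atp8 at -0.17 and the other 5 from 0.10 to 0.19.

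**Figure D5:**
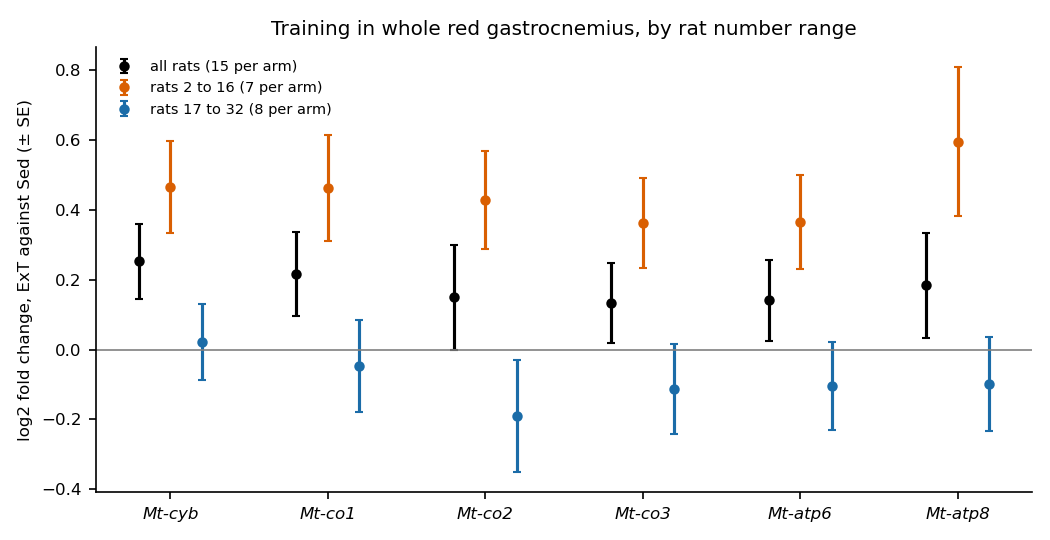
Log2 fold change of each mRNA in SM, ExT against Sed, from edgeR in all rats (black), rats 2 to 16 (orange) and rats 17 to 32 (blue); bars are ± 1 SE. The values of rats 2 to 16 lie from 0.36 to 0.60 and those of rats 17 to 32 from -0.19 to 0.02.

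In percent of all counts, ExT and Sed overlapped for 6 of 6 in each sample type (0.0% of genes were without overlap in SM, 0.0% in MT and 0.0483% in LV).

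The direction in SM differed between the rat ranges, without passing the adjusted threshold. In rats 2 to 16 the 6 together took a median of 5.30% of all counts in Sed (3.23 to 6.11) and 6.88% in ExT (5.64 to 7.68), and in rats 17 to 32 they took 4.50% (3.43 to 6.01) and 4.58% (3.90 to 5.67). The earlier ExT rats lay at the top of the range with a small overlap with Sed, and the later ones inside it. By edgeR the log2 fold changes were 0.36 to 0.60 in the earlier range, with adjusted p from 0.0562 to 0.117. There the unadjusted edgeR p was under 0.05 for 6 of 6, and for 3110 of all 13423 genes tested. In the later range the log2 fold changes of the 6 were -0.19 to 0.02. The unadjusted edgeR p was under 0.05 for 0 of 6 in that range, and for 822 of all 13662 genes. The interaction was -0.45 to -0.70, with unadjusted edgeR p of 0.00906 to 0.0151 for all 6. Of all 14033 genes, 1803 had an unadjusted edgeR p under 0.05 for it. The edgeR adjusted p of the 6 was 0.263 at the least, and 0.0% of 14033 genes were called. Related lists had medians of the same sign in this interaction: -0.498 for the 6, -0.524 for the 7 complex I mRNAs, -0.341, -0.420 and -0.327 for the nuclear-encoded genes of complexes III, IV and V, and -0.128 for the factors for mitochondrial mRNA, beside -0.0071 for all genes. Cell type marker lists of this sign were heart muscle (-0.644), Schwann cell (-0.493), red blood cell (-0.403) and endothelium (-0.192). Smooth muscle and pericyte (-0.0838) and fibroblast (-0.0302) markers had this sign too. Fat cell (1.88), skeletal muscle (0.0548) and immune (0.0277) markers had the other sign. In the same rats the summed level of the heart muscle markers, of which skeletal muscle also expresses some, had a median of 1570 CPM in earlier Sed (1029 to 2757) and 2642 CPM in earlier ExT (2362 to 3233), and 2330 and 2291 CPM in the later range. The summed red blood cell markers had medians of 122 and 157 CPM in the earlier range and 101 and 98.6 CPM in the later. Schwann cell markers (4 genes) had medians of 26.7 CPM in earlier Sed (6.08 to 67.5) and 69.5 CPM in earlier ExT (17.5 to 131), and 32.2 CPM (10.98 to 106) and 60.3 CPM (23.1 to 117) in the later range. The part of these in the result was not tested. In MT the corresponding interaction was 0.12 to 0.49 (edgeR adjusted p 0.999 each, 0.0% of 21400 genes called).

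The training effect was also compared between sample types. MT minus SM gave 0 of 6 calls with edgeR (0.0181% of 27684 genes, 0.00361% higher and 0.0144% lower) and adjusted p of at least 0.925, and LV minus SM gave 0 of 6 (0.0% of 15049 genes). None of the 6 had an unadjusted p under 0.05 in either, and DESeq2 called 0.

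In composition, Mt-cyb passed the threshold with training in SM, but not under every setting. Its share of the 13 was 8.63% ± 0.418 in SM_ExT and 8.23% ± 0.434 in SM_Sed (n = 15 each), a difference of 0.40 points (permutation test, p 0.0173, adjusted 0.0336). This was 1 of 6, where 15.4% of the 13 passed; the other that passed was Mt-nd3, named after its values were seen, at 0.655% and 0.784%. The Mt-cyb difference was 0.18 points in rats 2 to 16 (exact permutation adjusted p 0.592) and 0.59 points in rats 17 to 32 (0.0268, exact permutation test), and it did not pass as a share of all 37 genes (permutation adjusted p 0.245). Mt-co1 was higher by 1.16 points (permutation adjusted p 0.0928) and Mt-atp6 lower by a difference of -0.21 (0.0782), both short of the threshold. In MT and LV 0 of 6 passed, and 0.0% of the 13 did in each. As a share of all 37 mitochondrial genes, however, Mt-co1 passed with training in LV, at 10.2% ± 0.495 in LV_ExT and 9.07% ± 0.655 in LV_Sed (SD, n = 7 each, exact permutation adjusted p 0.0122), while its share of the 13 differed by -0.318 points. The 13 mRNAs together made up 11.1 to 12.9% of mitochondrial counts in LV_Sed libraries and 12.4 to 15.0% in LV_ExT libraries. The part of the rRNAs in this pass was not tested. The log2 ratio of Mt-atp8 to Mt-atp6 was lower in LV_ExT than in LV_Sed by a difference of -0.38, which did not pass (exact permutation p 0.0262, adjusted 0.0612).

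Among the nuclear-encoded partners, edgeR called 0 of 8 genes of complex III, 1 of 12 of complex IV, 0 of 14 of complex V and 0 of 27 factors for mitochondrial mRNA with training in SM, and 0 in each of these lists in MT and LV. The called gene was Cox7a1, at 4.91 CPM in SM_ExT and 2.91 CPM in SM_Sed (log2 fold change 0.75, SE 0.145, edgeR adjusted p 0.0163). It is below the 5 CPM asked of a named gene and was named after its values were seen. The medians of the lists were 0.08, 0.06, 0.08 and 0.06 on the log2 scale, beside 0.17 for the 6 and -0.0055 for all genes.

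Across the SM libraries, with the arm means removed, 5 of the 6 varied closely together. Mt-cyb and Mt-co1 had a Spearman's rho of 0.975 over 30 libraries, Mt-co3 and Mt-atp6 0.957, and Mt-co2 and Mt-atp6 were each most like the complex I mRNA Mt-nd2 (0.980 and 0.981). Mt-atp8 was the least like each of the other 5, with rho from 0.06 to 0.18, and its own nearest was Mt-nd6 at 0.1996. In LV, over 14 libraries, Mt-cyb, Mt-co3 and Mt-atp6 were most like Mt-nd1 (0.982, 0.982 and 0.987), Mt-co1 and Mt-co2 most like each other (0.912) and Mt-atp8 most like Mt-nd3 (0.877). These values describe libraries that share scaling and depth.

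Nuclear genes close in SM to the mean of the 6 included Cisd3, an iron-sulphur protein of mitochondria, at 0.905, Mrpl37 of the mitochondrial ribosome at 0.878 and Oxa1l, which inserts proteins into the inner membrane, at 0.863, out of 8536 genes over 30 libraries. In LV, out of 8797 genes over 14 libraries, they included Sbds, a factor of ribosome maturation, at 0.881, Rac1, a small GTPase, at 0.881 and Deptor, which binds the mTOR kinase, at 0.877.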

How the data were processed

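Counts per gene (whole numbers) were used as the authors deposited them in 3 tables, for SM, MT and LV. Per the submitters' processing notes, FastQC 0.74, cutadapt 4.6, STAR 2.7.11a and HTSeq were used with the build mRatBN7.2; strand setting and treatment of multiply mapped reads are not given in the sources used here, so reads shared with nuclear copies of mitochondrial DNA or between Mt-atp8 and Mt-atp6 are uncertain. Samples were grouped by title, every sample column was used, and within a group each library is a separate rat per the labels, and rat numbers tie the SM, MT and LV libraries of 1 animal. Libraries of the same rat deviated together only weakly (median correlation 0.0198 for MT and SM and 0.0430 for LV and SM over 7799 genes), and all pairs of libraries differed by more than sampling noise (smallest chi-square per degree of freedom 1.20).

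All genes were fitted with edgeR 4.0.16 in R 4.3.3 (TMM, filterByExpr, robust quasi-likelihood F test, Benjamini-Hochberg over all genes tested, threshold 0.05), and with DESeq2 1.42.0 as an alternative. Percentages of counts, ratios and correlations came from Python (scipy 1.17.1, pandas 2.3.3, numpy 2.4.6), and group means were compared by two-sided permutation tests (100000 resamples, exact for groups under 10), with adjustment over 91 share tests or 7 ratio tests. The share and ratio tests of MT or LV against SM did not pair libraries by rat, except where a sign-flip test is named. Fits and tests were checked on simulated data. Alternatives were other scalings, no low-count filter, each rat range, rat range as a term, the rat number as a block, thinning and other denominators. Members, lists and rat ranges were chosen with earlier results of these data known. The 6 members are always named; of other mitochondrial mRNAs the largest and smallest change, of the nuclear lists the called gene with the largest fold in each direction and a mean of at least 5 CPM, and the 4 most like genes are named, except items that are not reported here. Lengths and sequences of the 6 were not used here, so no level per length is given.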

Additional observations from a re-analysis of the deposited data

Results flagged for a closer look

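The MT minus SM difference within a rat differed between rats 17 to 32 and rats 2 to 16 in 6 of 14 tests, by a permutation of the range labels over 16 and 14 rats (chosen after seeing the data). Of these, 4 concern the 6 mRNAs, and the other 2 are the shares of the complex I mRNAs Mt-nd3 (0.2001 points, permutation adjusted p 0.0042) and Mt-nd4l (0.148 points, 0.0119). For the Mt-atp8 to Mt-atp6 log2 ratio the later minus earlier difference was -1.72 (permutation adjusted p 7.0e-05): MT was higher in 12 of 14 earlier rats and in 0 of 16 later rats. For the share of Mt-atp8 among the 13 mRNAs it was -0.137 points (permutation adjusted p 7.0e-05), with MT higher in 10 of 14 and 0 of 16 rats. For Mt-cyb it was -1.04 points (permutation adjusted p 0.00955), from 2.43 ± 1.03 to 1.39 ± 0.738 (SD), with MT higher in 14 of 14 and 16 of 16 rats, so that the size differed and not the direction. For Mt-co2 it was 0.468 points (permutation adjusted p 0.0172), from 0.334 ± 0.406 to 0.803 ± 0.472, with MT higher in 12 of 14 and 15 of 16 rats. What the rat number marks is not given in the sources used here, and its part in these differences was not tested.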

How the results depend on the processing

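Of 384 repeats of a log2 fold change of the 6 under another setting, 309 kept direction and side of the threshold and 48 turned direction; of 174 repeats of a share difference, 137 kept both and 20 turned. The cause was not tested. Depth limits Mt-atp8 most, with 29 counts in 1 MT library. Level per length was not run, and LV was not fitted in rats 2 to 16, with 1 library per arm.

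For MT against SM in Sed, edgeR called 1 of 6, against 0 with RLE size factors, 0 with DESeq2, 0 in rats 2 to 16, 4 with library totals, 4 with the replicate block and 5 after thinning to the smallest total. In ExT it called 0, against 1 with library totals, 1 with DESeq2, 1 in rats 17 to 32, 3 with the replicate block and 5 after thinning. The median log2 fold change of all genes moved with them, from 1.81 to 3.41 with library totals and to 0.19 after thinning in Sed. With library totals 17576 genes were higher and 2843 lower in Sed, against 14086 and 7562. Of all genes in Sed, 21648 of 22842 were called, 20419 with library totals, 21628 with the replicate block and 6254 of 7314 after thinning. In ExT these were 20092 of 21312, 18203, 20069 and 4175 of 4996. DESeq2 called 28246 of 30030 genes in ExT, and edgeR 20058 of 21647 in rats 17 to 32.

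Members past the threshold by share numbered 0 for training in SM both in rats 2 to 16 and over all 37 genes, 1 for training in LV over 37 genes, 2 for MT against SM in Sed in rats 2 to 16 and 2 over 37 genes, 3 and 2 in ExT, and 3 for LV against SM in ExT over 37 genes. The member of LV training was Mt-co1, at 10.2% against 9.07% (exact permutation adjusted p 0.0122). The log2 ratio of Mt-atp8 to Mt-atp6 for training in MT was -0.043 in rats 17 to 32. For MT against SM it was 0.73 and -0.86 in Sed and 0.93 and -0.91 in ExT in the earlier and later range.

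Genes called with training in SM numbered 28, against 117 with DESeq2, 396 in rats 2 to 16, 1 in rats 17 to 32 and 45 with rat range as a term. Those of the training effect in MT minus SM numbered 5, against 0 with library totals, 33 with DESeq2, 20 and 1 within the ranges and 3 with the replicate block, and those in LV minus SM 0, against 3 with DESeq2. The nuclear-encoded lists were refitted with RLE size factors and library totals after seeing the data. After thinning, MT against SM gave 6254 in Sed and 4175 in ExT.

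Log2 fold changes that turned were, for training in SM in rats 17 to 32, Mt-co1 -0.048, Mt-co2 -0.19, Mt-co3 -0.11, Mt-atp6 -0.10 and Mt-atp8 -0.10. For training in MT they were, with library totals, Mt-cyb -0.053, Mt-co1 -0.055, Mt-co2 -0.098, Mt-co3 -0.052, Mt-atp6 -0.067 and Mt-atp8 -0.039, and with DESeq2 Mt-cyb -0.24, Mt-co2 -0.27, Mt-co3 -0.23 and Mt-atp6 -0.18. For MT against SM in Sed they were Mt-cyb -0.048 and Mt-co2 -0.10 with no low-count filter, -0.36 and -0.38 in rats 17 to 32, and Mt-co2 -0.029 with rat range as a term; Mt-co1 and Mt-co3 0.19 and 0.25 with RLE, 0.42 and 0.62 with library totals, 0.18 and 0.25 with DESeq2, 0.21 and 0.23 in rats 2 to 16 and 1.38 and 1.44 after thinning; and Mt-atp6 and Mt-atp8 0.11 and 0.087 with library totals and 0.96 and 0.31 after thinning. In ExT they were Mt-co1 -0.28 and Mt-co3 -0.091 with DESeq2, Mt-atp6 0.39 with RLE, 0.053 in rats 17 to 32, 0.00054 with rat range as a term and 1.77 after thinning, and Mt-atp8 0.50 after thinning. For LV against SM in Sed Mt-co3 was 0.14 with library totals.

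The rat number pairs libraries of 1 animal. With this replicate block, MT against SM gave Mt-cyb -0.64 and Mt-co2 -0.76 in Sed and Mt-cyb -0.87, Mt-co1 -1.43, Mt-co2 -0.92 and Mt-co3 -1.05 in ExT, in place of values of the other sign. The block added the call of Mt-co2 in LV against SM in Sed.

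Share differences that turned, in points, were, for training in SM, Mt-co2 0.0039 in rats 2 to 16 and Mt-atp8 -0.00101 in rats 17 to 32, and over 37 genes Mt-co2 0.0328, Mt-co3 0.0323 and Mt-atp6 0.0592. For training in MT they were Mt-co1 -1.69 and Mt-atp6 -0.0258 in rats 2 to 16, Mt-cyb -0.0182 and Mt-co2 0.0260 in rats 17 to 32, and Mt-co1 -0.0298 and Mt-atp6 -0.0127 over 37 genes. For training in LV over 37 genes they were Mt-co1 1.13 and Mt-co2 0.110. For MT against SM, Mt-co3 was -0.101 in rats 17 to 32 and -0.0481 over 37 genes in Sed and -0.0295 over 37 genes in ExT, and Mt-atp8 was 0.0301 in Sed and 0.0452 in ExT in rats 2 to 16. For LV against SM over 37 genes, Mt-co3 was -0.300 in Sed and -0.122 in ExT.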
